A study of Mus musculus with 3 samples.

Results

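The 9 genes described here encode matrix metalloproteinases and their tissue inhibitors: Mmp2, Mmp8, Mmp9, Mmp12, Mmp13, Mmp14, Mmp19, Timp1 and Timp2, out of 32285 genes in the count matrices. They are taken by gene name, and the rule itself uses no measured value, but they were chosen with earlier results of these data known. Matrix metalloproteinases are zinc-dependent enzymes that cut collagen, elastin and other proteins of the extracellular matrix. Most are secreted as inactive precursors and are activated outside the cell, and the tissue inhibitors of metalloproteinases bind the active enzymes. In the artery wall these enzymes are studied for their part in thinning the fibrous cap of atherosclerotic plaques and in the breakdown of elastic layers in aneurysm.

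CD45+ cells were sorted from digested whole mouse aortas, adventitia included, and sequenced as 1 single-cell library per group, which limits every comparison to a description of 3 libraries. All mice were labelled ApoE-/- on C57BL/6J, a strain that lacks apolipoprotein E and has high blood cholesterol. The control library came from mice with no treatment named, the library labelled HHcy from mice given homocysteine at 1.8 g/L in their drinking water for 4 weeks, and the WD library from mice fed a western diet for 4 weeks. Age, sex and the number of mice behind a library are not given in the labels, so the spread between animals is unknown and no p-value is given.

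The libraries held 7512 barcodes and 66789257 UMIs (control), 9753 and 105180370 (labelled HHcy) and 8557 and 93164076 (WD), of which 5430, 6486 and 5369 cells were used after removal of low-quality cells and doublets. Between 20 and 24 barcodes were shared by any pair of libraries. Apoe, the gene the strain lacks, goes against the label of one library: its level in macrophages and monocytes was 29.1 CPM (UMIs per 1000000 UMIs) in the control library, 26.4 in the WD library and 1158 in the library labelled HHcy. There 190 of 1207 macrophages and monocytes held at least 10 Apoe UMIs, against 1 of 1915 in the control library and 2 of 2642 in the WD library. The labels do not say which part of Apoe is disrupted. Every difference drawn from that library therefore concerns the library labelled HHcy, and its value without the cells with at least 10 Apoe UMIs is given where that ended the call. That value was not computed for unnamed sub-clusters, for neutrophil sub-clusters or for single genes other than the members.

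Levels are CPM of the summed UMIs of a cell group in a library, with an exact Poisson 95% interval in brackets, and differences are log2 ratios of CPM over the control library with an exact 95% interval. Both intervals cover counting error only, not the spread between mice or between cells. Where 3 values follow each other, their order is control, labelled HHcy, WD. A ratio was called past the fold when it reached 1.5 in either direction with at least 20 UMIs over both libraries, and single ratios are given only where each library held at least 20 UMIs. Shares of cells were taken after each cell was thinned to 2000 UMIs. Cell classes and subsets were named from marker genes and mean cells like those named. No smooth muscle cell cluster was found.

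Mmp13, Mmp12 and Mmp8 are neighbours on mouse chromosome 9 (build GRCm38, the annotation GENCODE M21, all on the plus strand). Mmp13 spans 9:7272514-7283331, Mmp12 9:7344381-7369499 and Mmp8 9:7558456-7568485, and the 295.972 kb between the first and last base of the trio hold 7 Mmp genes. Mmp1b, on the other strand, overlaps the end of Mmp12 and had 0 UMIs in the cells used. The other members lie apart: Mmp9 at 2:164940780-164955850 (+), Mmp2 at 8:92827291-92853420 (+), Mmp14 at 14:54431612-54445364 (+), Mmp19 at 10:128790910-128800824 (+), Timp1 at X:20870166-20874735 (+) and Timp2 at 11:118301069-118355740 (-). Timp1 lies inside the Syn1 gene on the opposite strand, Mmp19 overlaps the opposite-strand genes Gm47093 and Tmem198b, and Timp2 overlaps Cep295nl on its own strand, so reads at those overlaps could be shared.

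The 150 bases just before each RefSeq transcript start (GRCm38.p6, plus strand) are shown for the 3 neighbours because Mmp12 and Mmp13 were found in the same macrophages in these data and Mmp8 mostly in neutrophils. Capitals mark the letters TGANTCA, the site of AP-1 factors, or TATAAA, the TATA box, searched on both strands.
Mmp13, chr9:7272364-7272513: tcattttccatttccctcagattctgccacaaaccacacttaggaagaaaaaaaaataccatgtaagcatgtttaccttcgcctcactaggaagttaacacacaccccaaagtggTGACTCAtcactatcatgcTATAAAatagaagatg
Mmp12, chr9:7344247-7344396: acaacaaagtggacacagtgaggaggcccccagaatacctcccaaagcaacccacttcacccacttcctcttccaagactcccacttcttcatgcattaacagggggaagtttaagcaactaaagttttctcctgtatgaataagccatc
Mmp12 at its second start, chr9:7347224-7347373: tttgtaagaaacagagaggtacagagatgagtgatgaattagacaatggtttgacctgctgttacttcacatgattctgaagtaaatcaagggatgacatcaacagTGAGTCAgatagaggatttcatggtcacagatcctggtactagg
Mmp8, chr9:7558279-7558428: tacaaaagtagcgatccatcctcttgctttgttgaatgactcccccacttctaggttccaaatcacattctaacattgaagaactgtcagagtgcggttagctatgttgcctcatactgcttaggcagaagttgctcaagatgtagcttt
In the Mmp13 window the AP-1 letters begin 35 bases and the TATA letters 16 bases before the start, and in the window of the second Mmp12 start the AP-1 letters begin 44 bases before it. TGANTCA was present in 4.24% of 32851 such windows, TATAAA in 7.57% and both in 0.511%. Neither was found in the windows of Mmp8, Mmp14, Timp1 or Timp2 or of the first Mmp12 start, which says only that these letters are not in those 150 bases. RefSeq starts were given for 6 of the 9 members. The counts do not tell which start was used.

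The members divided among a few cell classes. Mmp12 and Mmp13 were macrophage genes: macrophages and monocytes held 87.6, 94.7 and 89.1% of the Mmp12 UMIs and 93.5, 93.1 and 88.8% of the Mmp13 UMIs of the cells used. Mmp8 and Mmp9 were neutrophil genes, with 80.8, 87.6 and 76.5% and 70.2, 82.1 and 70.4% of their UMIs there, from 195, 417 and 268 cells. Mmp2 was a fibroblast gene, with 86.2, 88.8 and 92.4% of its UMIs in 31, 87 and 175 cells. Mmp14, Mmp19 and Timp2 were spread wider, with most UMIs in macrophages and monocytes, and Timp1 was shared by fibroblasts (31.5, 60.1 and 77.2% of its UMIs), conventional dendritic cells (46.4, 17.8 and 10.4%) and macrophages and monocytes (16.6, 12.1 and 10.3%). The class with the highest CPM of each member was the same under every alternative processing run, 9 of 9 members. These shares depend on how many cells of each class a library holds: the CD45 sort should remove fibroblasts, and Ptprc, which encodes CD45, was seen in 22.6, 18.4 and 18.3% of the fibroblasts against 93.4, 93.4 and 94.7% of the macrophages and monocytes.

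**Figure D1:**
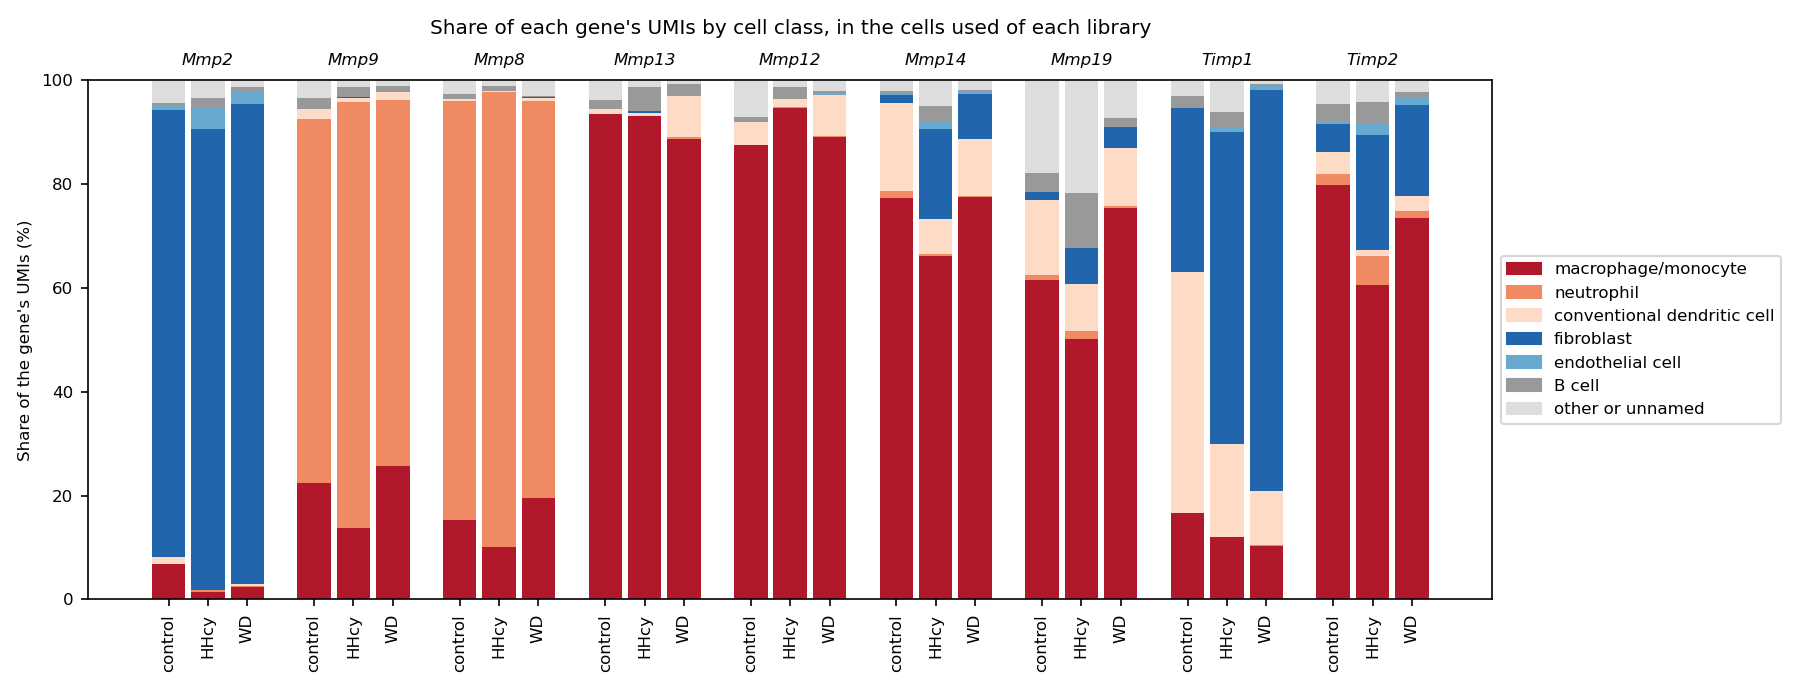
Stacked bars give the percent of each member's UMIs, in the cells used, that fell in each cell class, with 1 bar per gene and library. Macrophages and monocytes fill most of the Mmp12 and Mmp13 bars (88.8% or more of Mmp13), neutrophils the Mmp8 and Mmp9 bars, and fibroblasts the Mmp2 bars (86.2% or more).

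Mmp12, the macrophage elastase, and Mmp13, a collagenase that cuts fibrillar collagen, both peaked in a sub-cluster of 51, 51 and 29 macrophages left unnamed. Its best marker list was that of macrophages with C1q and MHC class II genes (mean log2 ratio of its best markers 1.94). The cluster that took that name scored 1.76. The interferon macrophage list came second at 1.57, too close for a name. Its leading genes were Mmp13 and Mmp12 themselves, H2-M2, Dnase1l3, Cadm1 and Clec1b, and it is called the H2-M2 sub-cluster here (sub-cluster 7 in the plots). The 9 members and all related protease genes had been kept out of the genes used for clustering. The 131 cells carried all 20 macrophage and monocyte markers (17536, 20499.7 and 17049 CPM in sum) and little of the B cell list (93.6 to 139 CPM) or the dendritic cell list (71.8 to 103 CPM, Fscn1 and Itgae at 0 in all 3 libraries).

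In the H2-M2 sub-cluster Mmp12 stood at 1755 CPM (1649 to 1866) in the control library, 2174 CPM (2043 to 2311) in the library labelled HHcy and 1819.9 CPM (1678 to 1971) in the WD library. Mmp13 stood at 390.0 CPM (341 to 444), 859 CPM (778 to 947) and 540.2 CPM (464 to 625) there. Mmp12 was detected in 90, 90 and 65.5% of the thinned cells and Mmp13 in 44, 58 and 48.3% (96.1, 96.1 and 82.8% and 58.8, 78.4 and 75.9% before thinning). In B cells, which are not known to make either enzyme, the thinned share with Mmp12 was 0.305, 0.196 and 0.847% (1.46, 1.31 and 2.79% before thinning) at median depths of 8218.5, 6576 and 7453 UMIs, against 10887, 8417 and 10229 in the sub-cluster. Between libraries Mmp12 had log2 ratios of 0.31 (95% interval 0.18 to 0.44) and 0.05 (95% interval -0.10 to 0.20), both below the 1.5-fold limit. Mmp13 was higher in the library labelled HHcy by 1.14 (95% interval 0.90 to 1.38), and its WD ratio of 0.47 (95% interval 0.18 to 0.76) was below the limit. No alternative was run for the ratios of this sub-cluster. Their values without the cells with at least 10 Apoe UMIs, after thinning or without 10 cells are therefore not known. Apoe was seen in 41.2% of its cells in the library labelled HHcy. At least 5 Mmp13 UMIs were held by 3 of 50, 6 of 50 and 3 of 29 thinned cells, with at most 11, 22 and 9 in 1 cell. Of the members with enough UMIs in this sub-cluster, 1 of 4 was past the fold in the library labelled HHcy and 0 of 4 in the WD library, where 22.2% and 24.6% of all genes were. Under a finer clustering the sub-cluster returned with 134 cells (99.2% of the 131). It merged into groups of 1083 to 1322 cells when more mitochondrial reads were allowed, doublets were kept or cells were named one by one. When each library was clustered alone, a group could hold cells of 1 library only. The group with the highest Mmp13 level then had 125 cells. It held 51 of the 131, which is all the sub-cluster's cells of that library. That run cannot show whether cells of different libraries group together.

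Below that sub-cluster the order of Mmp12 levels in the control library was the macrophages with C1q and MHC class II genes (called C1q-like), then foamy-like macrophages, cycling cells, an unnamed sub-cluster led by Ifitm1 and Spon1 (sub-cluster 5 in the plots), and the remaining subsets. Foamy-like macrophages, which carry Gpnmb, Fabp5 and Spp1 and resemble lipid-loaded cells, had 304, 235 and 277 CPM of Mmp12. Their 3 values differed by less than 1.5-fold, and in the library labelled HHcy all 112 UMIs came from 9 of 33 cells. Resident-like macrophages (Lyve1, Folr2, Cd163) had 2.85, 4.50 and 5.13 CPM and non-classical monocyte-like cells 9.83, 2.69 and 9.07 CPM, where B cells had 2.30, 1.76 and 4.12 CPM.

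**Figure D2:**
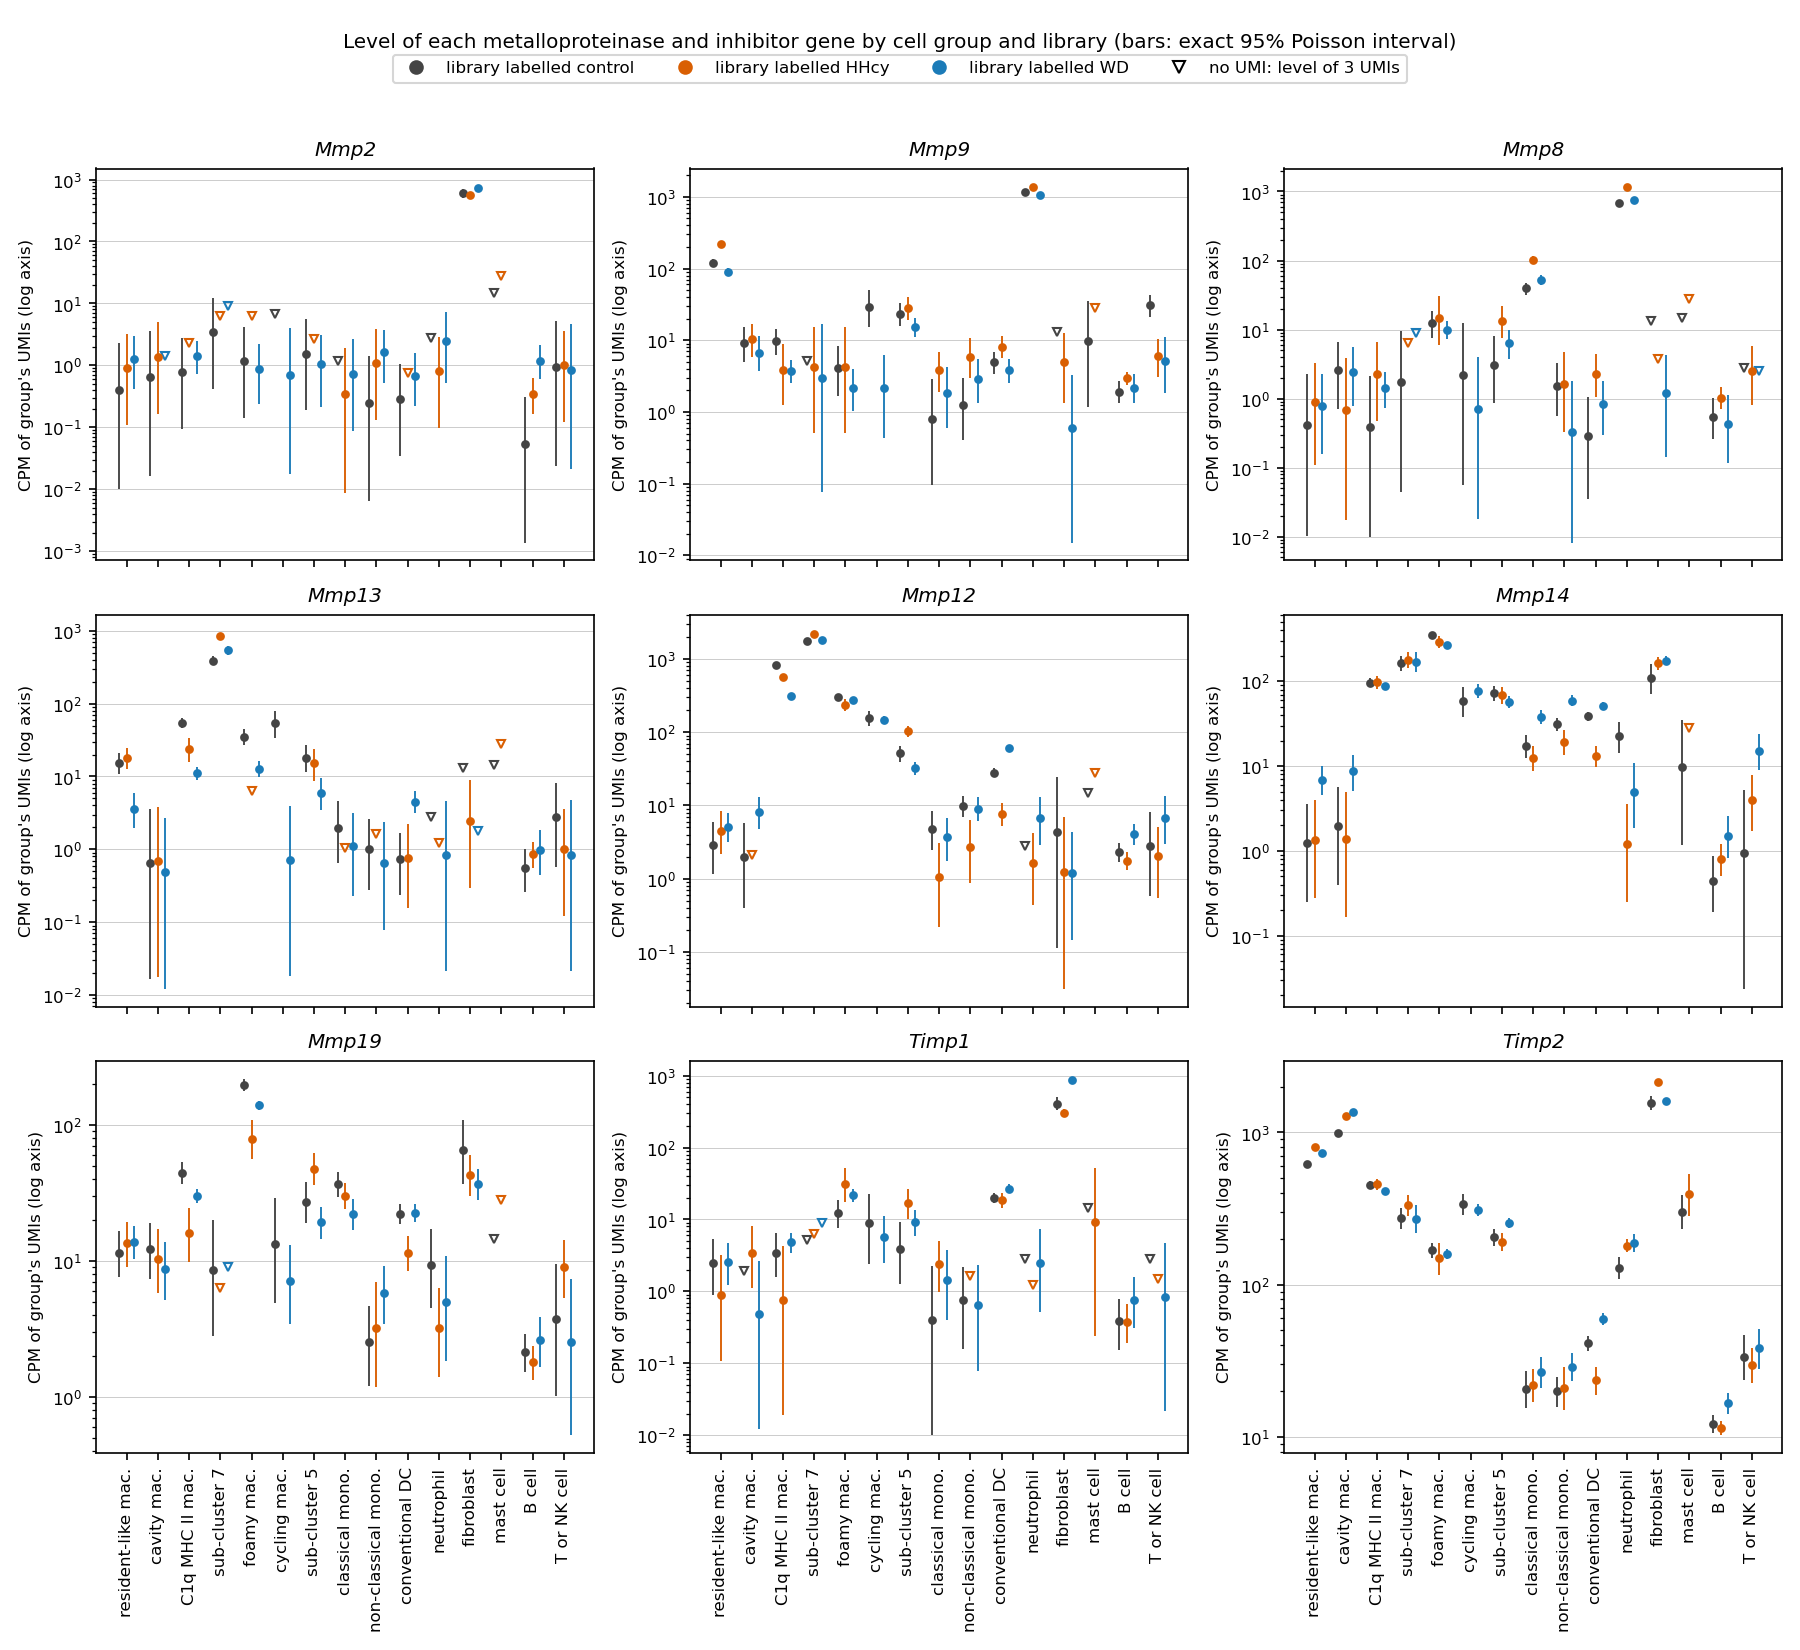
Each panel shows 1 member, with CPM on a log axis for the cell classes and macrophage subsets, a colour for each library and bars for exact Poisson 95% intervals. Triangles mark the level of 3 UMIs where none were counted, and the highest point of the Mmp12 and Mmp13 panels is the H2-M2 sub-cluster.

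The C1q-like macrophages, 235, 121 and 753 cells, held less Mmp12 and Mmp13 per UMI in the WD library than in the control library. Mmp12 was 842 CPM (807 to 878) in the control library, 567 CPM (527 to 609) in the library labelled HHcy and 318 CPM (306 to 329.8) in the WD library. The control value was the highest and the WD value the lowest, and the intervals did not overlap. The log2 ratio was -1.41 (95% interval -1.49 to -1.32) for the WD library and -0.57 (95% interval -0.69 to -0.45) for the library labelled HHcy, of which only the first is past the fold. Mmp13 was 54.4, 23.5 and 11.1 CPM, from 141, 31 and 95 UMIs, with log2 ratios of -2.29 (95% interval -2.68 to -1.91) and -1.21 (95% interval -1.82 to -0.64).

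Few cells carried these counts. The 10 cells with most Mmp12 held 63.5, 87.8 and 43.3% of the C1q-like Mmp12 UMIs, and 92.9% of the control Mmp13 UMIs sat in 10 cells. Without those 10 cells of each library the WD ratio was -0.89 for Mmp12 and -0.66 for Mmp13, and that of the library labelled HHcy was -2.12 for Mmp12. As 10 cells are an unequal part of 235, 121 and 753 cells, these shares and ratios depend on cell number as well. After thinning, Mmp12 was seen in 21.3, 14.7 and 13.3% of the C1q-like cells (48 of 225, 17 of 116 and 98 of 736; 32.8, 25.6 and 22.6% before thinning), and at least 5 Mmp12 UMIs were seen in 6.22, 4.31 and 2.72%. The thinned cells with Mmp12 carried 4.02, 4.76 and 3.17 UMIs of it on average. Only 8 alternatives could be run here, as the others formed no group named C1q-like with at least 20 cells in each library compared. Under all 8 the lower WD level of both genes kept its direction and stayed past the fold. The values of the library labelled HHcy did not: Mmp13 turned from -1.21 to between 0.99 and 1.32 under 4 alternatives (20% mitochondrial UMIs, doublets kept, clustering resolution 2, naming cell by cell), and Mmp12 turned from -0.57 to 0.032 and 0.18 under the last pair. In all of these but resolution 2 the H2-M2 cells had merged into a larger group, as given above. The part of that merging was not tested. C1q-like macrophages made up 12.3, 10.0 and 28.5% of the macrophages and monocytes.

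**Figure D3:**
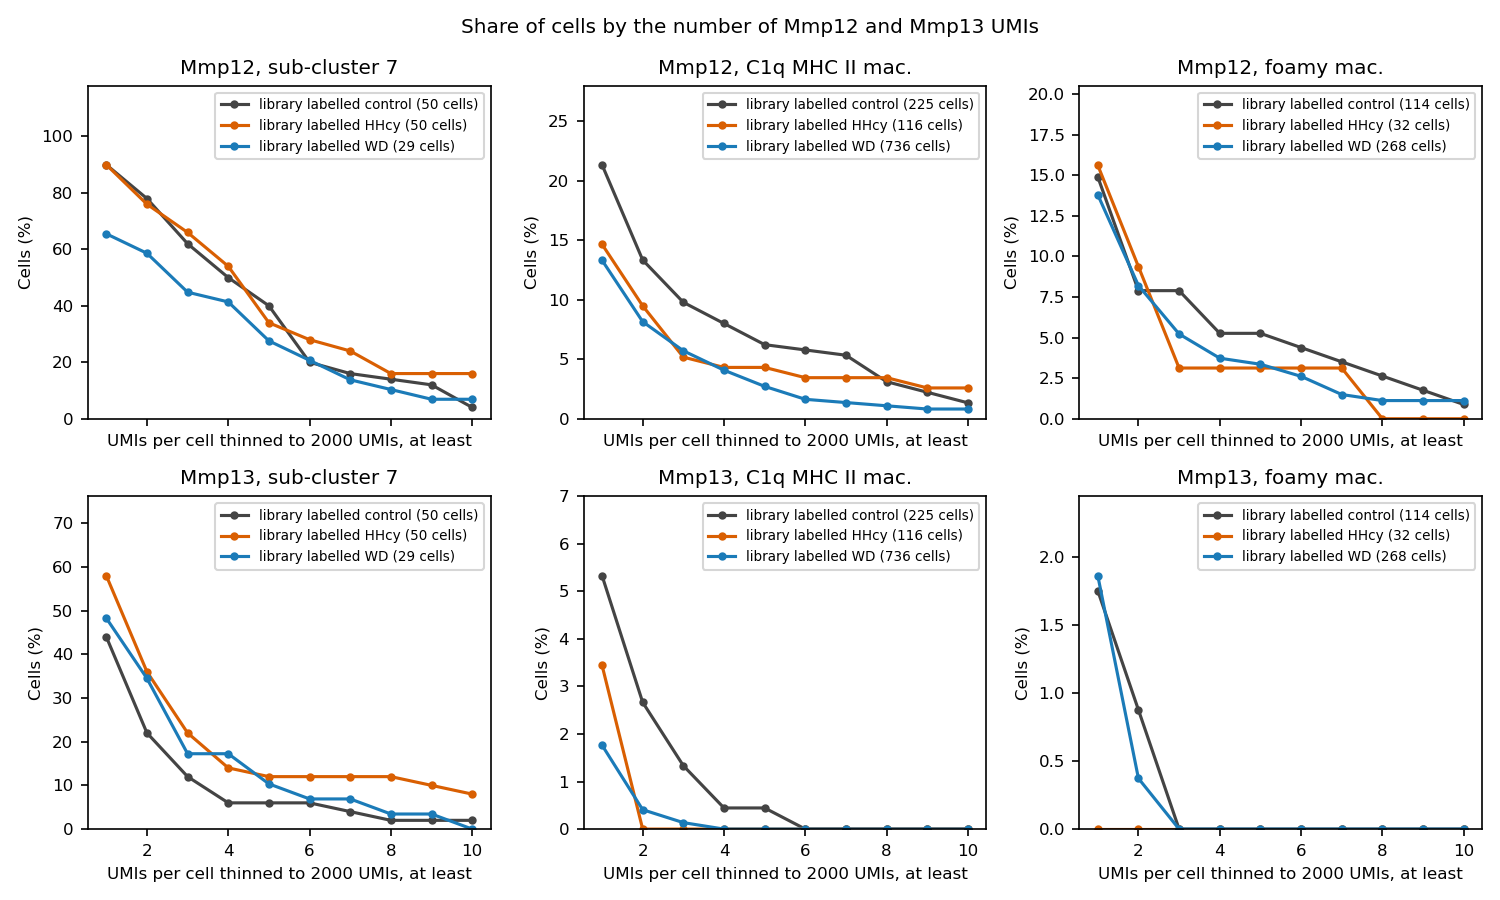
Lines give the percent of cells, each thinned to 2000 UMIs, that held at least 1 to 10 UMIs of Mmp12 or Mmp13 in the H2-M2 sub-cluster, the C1q-like and the foamy-like macrophages, by library. In the C1q-like panel of Mmp12 the control line starts at 21.3% and the WD line at 13.3%.

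Over all macrophages and monocytes Mmp12 was 229, 173 and 168 CPM. The log2 ratios of -0.41 and -0.44 were under the fold, and the first became 0.22 when each cell was thinned. Mmp13 was 30.5, 42.1 and 12.5 CPM, a log2 ratio of -1.28 (95% interval -1.48 to -1.09) for the WD library that shrank to -0.43 when the WD cells were given the sub-cluster mix of the control library, in which the H2-M2 cells are commoner. In foamy-like macrophages Mmp13 was 35.04 CPM in the control library and 12.7 in the WD library (-1.46 on the log2 scale, -0.32 without 10 cells of each), and 0 UMIs were counted in 33 cells of the library labelled HHcy, which allows a level of up to 6.29 CPM.

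Mmp12 and Mmp13 were found in the same cells. Among thinned macrophages and monocytes with an Mmp13 UMI, 54.0, 73.8 and 48.8% also held Mmp12 (27 of 50, 31 of 42 and 20 of 41), against 5.56, 4.15 and 6.70% of those without it. Mmp14, which activates other metalloproteinases at the cell surface, was likewise found with Mmp12: 27.1, 33.3 and 17.6% of Mmp14 cells held Mmp12 against 5.49, 4.99 and 6.03% of the others. Of the Mmp13 cells 22 of 50, 29 of 42 and 14 of 41 were in the H2-M2 sub-cluster, so the mix of subsets enters these contrasts. Cells of 1 library share its depth and its free RNA, and no test was made.

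Conventional dendritic cells of the WD library held more Mmp12 than those of the control library. The level was 27.9 CPM (24.1 to 32.2) in the control library, 7.67 CPM (5.17 to 10.9) in the library labelled HHcy and 60.5 CPM (55.02 to 66.5) in the WD library. The log2 ratios over control were -1.86 (95% interval -2.47 to -1.30) and 1.12 (95% interval 0.87 to 1.37). Most came from the Cd209a cluster, at 48.6, 14.2 and 94.9 CPM, and 10 cells held 85.9% of the control and 69.9% of the WD counts (without them the WD ratio was 2.23). The macrophage and monocyte marker list summed to 2819, 2488 and 4548 CPM in the same cells, with all 20 markers seen in each library, so it was highest in the WD library as well. Its part in the Mmp12 difference was not tested.

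Mmp8, the neutrophil collagenase stored in granules, and Mmp9, gelatinase B, were the neutrophil members. Mmp9 was 1151 CPM (1088 to 1217) in control neutrophils, 1357 CPM (1311 to 1403) in the library labelled HHcy and 1074 CPM (1016 to 1135) in the WD library, values within 1.5-fold of each other. It was detected in 71.3, 79.03 and 70.9% of thinned neutrophils (81.5, 89.7 and 78.7% before thinning) against 0.356, 0.756 and 0.471% of thinned B cells. Mmp8 was 683 CPM (634 to 734), 1145 CPM (1103 to 1188) and 756 CPM (708 to 807), so the library labelled HHcy stood apart with a log2 ratio of 0.75 (95% interval 0.63 to 0.87), while the WD ratio was 0.15 (95% interval 0.01 to 0.29). The Mmp8 share was 39.8, 53.7 and 44.7% of thinned neutrophils (44.6, 63.8 and 48.9% before thinning). The Mmp8 ratio of the library labelled HHcy kept its sign under 11 of 11 alternatives, from 0.33 after thinning to 1.07 without 10 cells, and was past the fold in 8. It was below it after thinning, with doublets kept (0.54) and with the sub-cluster mix of the control library (0.36). The value of 1.07 leaves out a larger part of 195 control cells than of 417. The Mmp9 ratio (0.24) turned to -0.091 with doublets kept. Of 4 members with enough UMIs in neutrophils, 2 were past the fold in the library labelled HHcy (Mmp8 higher, Mmp14 lower), where 37.8% of all genes were, and 1 in the WD library (Mmp14 lower), where 26.1% were. These shares are close to the background. The Mmp14 counts were 24, 3 and 6 UMIs, of which 22 of the control UMIs came from a sub-cluster with monocyte genes.

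The neutrophils fell into sub-clusters that differed in Mmp8 more than in Mmp9. The sub-cluster led by Ltf and Ngp, genes of secondary granules made before neutrophils leave the marrow, had 1522, 1877 and 1395 CPM of Mmp8. The sub-cluster led by the interferon-induced genes Ifit1 and Ifit3 had 855, 1520.3 and 1198 CPM, and the one led by Il1a, Il1rn and Csf1 had 353, 329 and 369 CPM. The Il1a group was the lowest of these in every library, and its 3 libraries did not differ beyond their intervals (log2 ratios of -0.10 and 0.07). In the Ifit1 group Mmp8 was higher in the library labelled HHcy by 0.83 (95% interval 0.55 to 1.12), and the control value rests on 27 cells. Mmp9 was 1675, 2152 and 1487 CPM in the Ltf group, 1766, 1343 and 1511 CPM in the Ifit1 group and 1311, 1118 and 913 CPM in the Il1a group. In the small sub-cluster led by the monocyte genes Ms4a6c, Ace and Cx3cr1 Mmp9 was 732, 571 and 509 CPM, and in the dividing cells led by Top2a and Mki67 it was 138, 182 and 23.4 CPM, with 0, 4 and 0 Mmp8 UMIs.

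The sub-cluster mix differed between libraries beside these levels. The Ifit1 group made up 13.8, 40.3 and 28.7% of the neutrophils, the Il1a group 33.3, 36.5 and 48.9%, the Ltf group 28.2, 15.8 and 13.1% and the Top2a group 13.3, 2.16 and 4.10%. Of 12 genes of immature neutrophils 9 were lower and 2 higher in the library labelled HHcy, where 30.4% of all genes in neutrophils were lower and 7.46% higher. Their median log2 ratio was -0.94 against -0.27 over all genes, with Top2a at 192 CPM in the control library and 35.5 there, and Fcnb, a ficolin of granules, at 158 and 29.5. In the WD library 5 of 11 were lower (19.0% of all genes), with a median of -0.57 against -0.11 over all genes. Of 12 genes of mature neutrophils 2 were higher in the library labelled HHcy, namely Stfa2l1 (402 against 692 CPM) and Cxcr2 (379.9 against 577), and 1 in the WD library, Ccl6, where 7.11% of all genes were higher. With the control mix the Mmp8 ratio of the library labelled HHcy was 0.36, as given above.

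**Figure D4:**
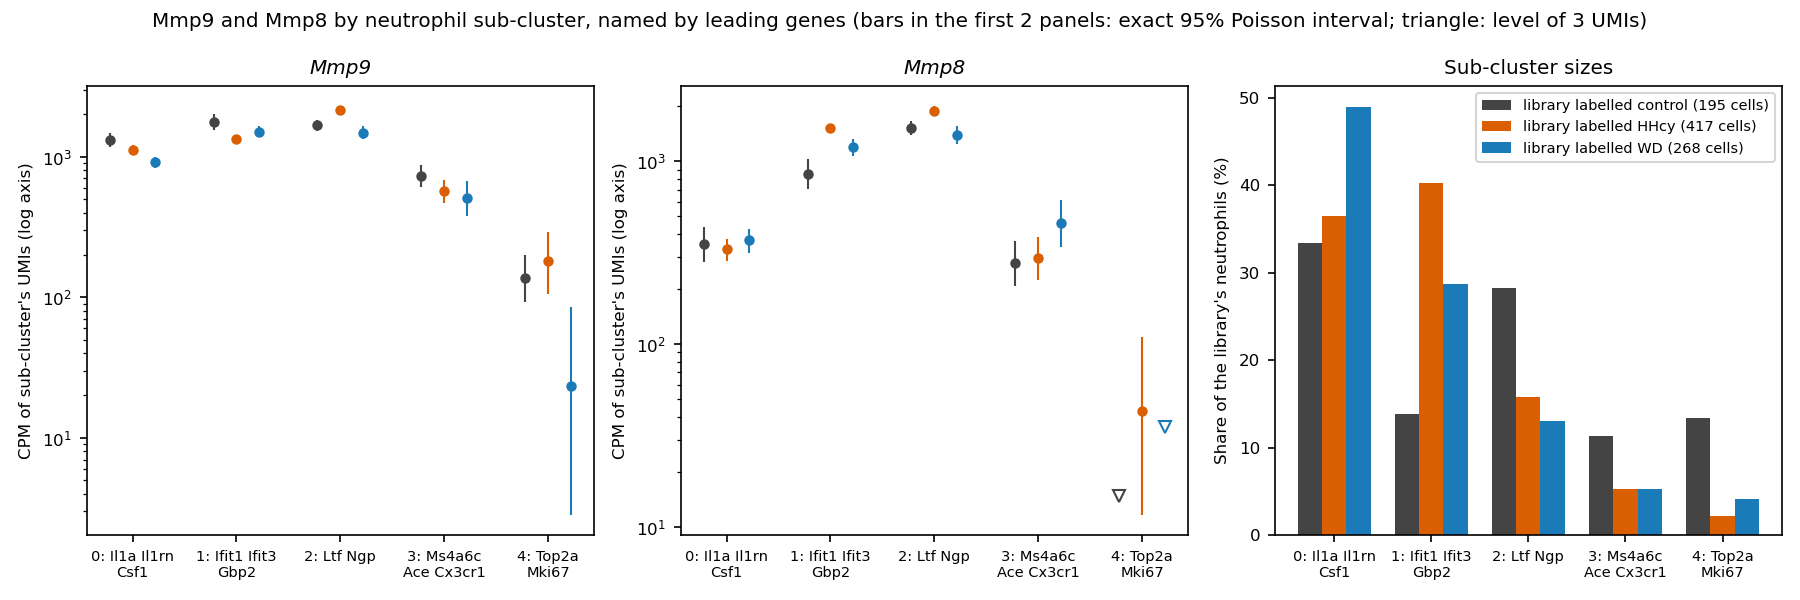
Points give Mmp9 and Mmp8 in CPM with Poisson 95% intervals for each neutrophil sub-cluster and library. Bars give the percent of each library's neutrophils in each sub-cluster. The Il1a sub-cluster has the lowest Mmp8 of the 3 large groups in each library (353, 329 and 369 CPM).

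Thinned neutrophils with Mmp9 more often held Mmp8 than those without it: 50.4, 59.2 and 54.8% (65 of 129, 183 of 309 and 92 of 168) against 13.5, 32.9 and 20.3%. Mmp12 and Mmp13, the chromosome 9 neighbours of Mmp8 shown above, had 0 UMIs in 195 control neutrophils, where 3 UMIs would be 2.82 CPM. In neutrophils of the library labelled HHcy and the WD library Mmp12 had 4 and 8 UMIs and Mmp13 0 and 1, and Mmp12 was seen in 0.512 and 1.69% of the thinned cells (2 of 391 and 4 of 237) against 0.196 and 0.847% of B cells.

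Outside neutrophils, Mmp9 had its highest macrophage level in the resident-like cells. There it stood at 120.3 CPM (107 to 135) in the control library, 217 CPM (198 to 237) in the library labelled HHcy and 90.3 CPM (81.1 to 100.2) in the WD library. The library labelled HHcy was highest and the WD library lowest, with log2 ratios of 0.85 (95% interval 0.64 to 1.07) and -0.41 (95% interval -0.64 to -0.19). The first stayed past the fold under 10 of 10 alternatives (0.86 without the cells with at least 10 Apoe UMIs) and the second is below it. Apoe was seen in 57.0% of resident-like cells of the library labelled HHcy, so cells with fewer Apoe UMIs stayed in. The share of thinned cells with Mmp9 was 15.4, 21.5 and 7.83% (24.5, 34.1 and 15.9% before thinning). The neutrophil marker list summed to 192, 373 and 328 CPM in the same cells (15 of 16 markers in each library) against 264963, 262556 and 223986 CPM in neutrophils. Thinned macrophages and monocytes with Mmp9 held Timp2, its inhibitor, in 59.0, 66.7 and 65.4% of cells against 29.8, 35.8 and 38.7% without Mmp9. Of these Mmp9 cells 62 of 78, 71 of 81 and 40 of 52 were resident-like. Timp2 was seen in 65.9, 71.6 and 66.5% of all thinned resident-like cells. The mix of subsets thus enters the contrast over the class, and its part was not tested.

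Mmp8 had its highest monocyte level in classical monocyte-like cells (Ly6c2, Chil3, Vcan), at 39.4 CPM (32.1 to 48.02), 103 CPM (91.3 to 115) and 52.9 CPM (44.7 to 62.3). The library labelled HHcy was above both others, by 1.38 (95% interval 1.05 to 1.72) over control, against 0.42 (95% interval 0.05 to 0.81) for the WD library. The ratio of the library labelled HHcy kept its sign under 10 of 10 alternatives but was 0.30 when each library was clustered alone. In these cells the neutrophil marker list was also highest in the library labelled HHcy, at 552, 1278 and 557 CPM, with 14, 16 and 14 of 16 markers seen and Ly6g and Stfa2l1 at 0 in the control and WD libraries. Its part in the Mmp8 difference was not tested. Over the class Mmp9 was 22.9, 47.2 and 15.9 CPM and Mmp8 8.07, 27.5 and 7.81 CPM, log2 ratios of 1.05 and 1.77 for the library labelled HHcy (0.79 and 1.98 without the cells with at least 10 Apoe UMIs) and of -0.53 and -0.05 for the WD library. The neutrophil list summed to 384, 786 and 380.4 CPM over the class.

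Mmp14, a membrane-bound metalloproteinase that activates Mmp2 and Mmp13 precursors, was the member of foamy-like macrophages. It reached 348 CPM (321 to 377) in the control library, 293 CPM (247 to 346) in the library labelled HHcy and 268 CPM (253 to 283) in the WD library, the highest of any subset in each library. It was seen in 38.6, 43.8 and 42.2% of thinned foamy-like cells (86.4, 93.9 and 87.1% before thinning). The H2-M2 sub-cluster followed at 164, 179 and 169 CPM and the C1q-like cells at 96.4, 97.2 and 88.1 CPM, with no difference between libraries beyond the intervals in either. In resident-like macrophages the level was 1.22, 1.35 and 6.93 CPM, from 3, 3 and 27 UMIs. Within foamy-like cells the log2 ratios over control were -0.25 and -0.38, below the fold.

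Monocyte-like cells of the WD library carried more Mmp14. In non-classical monocyte-like cells (Treml4, Ace) it was 31.3 CPM (26.01 to 37.3), 19.4 CPM (13.6 to 26.8) and 59.3 CPM (51.01 to 68.5), log2 ratios of -0.69 (95% interval -1.27 to -0.14) and 0.92 (95% interval 0.59 to 1.26). In classical monocyte-like cells it was 17.1, 12.5 and 37.96 CPM, with 1.15 (95% interval 0.62 to 1.70) for the WD library. Both WD differences were past the fold under all 10 alternatives, from 0.65 to 1.26 and from 1.09 to 3.35 (2.84 without 10 cells of each library in the classical cells). Conventional dendritic cells had 38.97, 13.04 and 51.5 CPM, so the library labelled HHcy was lower, with a log2 ratio of -1.58 (95% interval -2.04 to -1.14) (-2.46 without 10 cells of each), and this kept its sign and the fold in 9 of 9 alternatives. The value of -2.46 leaves out a larger part of 258 cells of the library labelled HHcy than of 452 control cells. Over macrophages and monocytes as a class Mmp14 was 72.1, 43.1 and 89.8 CPM. The class ratio of -0.74 for the library labelled HHcy became -0.19 when its cells were given the control sub-cluster mix, in which foamy-like cells are 118 of 1915 against 33 of 1207.

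Mmp19, a secreted metalloproteinase that cuts components of basement membranes, was highest among the subsets in foamy-like macrophages too, at 197 CPM (177 to 219.6), 79.7 CPM (56.4 to 109) and 139.9 CPM (129 to 151). It was lower in the library labelled HHcy, with a log2 ratio of -1.31 (95% interval -1.83 to -0.82), from 38 UMIs in 33 cells, and this was -0.17 after thinning. The WD ratio of -0.50 (95% interval -0.69 to -0.30) is below the fold and became 0.40 without 10 cells of each library. The share of thinned foamy-like cells with Mmp19 was 16.7, 18.8 and 16.04%, and 10 control cells held 69.8% of its control counts. C1q-like cells had 44.3, 15.9 and 30.2 CPM, with -1.48 (95% interval -2.22 to -0.80) for the library labelled HHcy. Few of them carried it: Mmp19 was seen in 6 of 225, 2 of 116 and 24 of 736 thinned cells (2.67, 1.72 and 3.26%). The ratio of the library labelled HHcy was past the fold in 8 of 8 alternatives that kept a C1q-like group. These include the ratio without 10 cells of each library (-2.30), which takes out a larger part of 121 cells than of 235. That ratio therefore adds no support. Classical monocyte-like cells had 36.7, 30.3 and 22.3 CPM and conventional dendritic cells 22.2, 11.5 and 22.7 CPM.

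Fibroblasts held the gelatinase Mmp2, which Mmp14 and Timp2 together activate. Mmp2 stood at 603 CPM (507 to 713) in 31 control fibroblasts, 553 CPM (503 to 607) in 87 of the library labelled HHcy and 734 CPM (694 to 776) in 175 of the WD library, log2 ratios of -0.12 (95% interval -0.40 to 0.16) and 0.28 (95% interval 0.03 to 0.55) that are below the fold. It was seen in 54.2, 59.7 and 67.4% of thinned fibroblasts (61.3, 72.4 and 79.4% before thinning), and in 32 UMIs over 2642 WD macrophages and monocytes. Endothelial cells, 11, 20 and 33 cells, had 101 and 113 CPM in the library labelled HHcy and the WD library. Fibroblast Mmp14 was 109, 165 and 176 CPM, with ratios of 0.59 (95% interval -0.03 to 1.27) and 0.69 (95% interval 0.10 to 1.34), of which the first was 0.43 without the cells with at least 10 Apoe UMIs.

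The smooth muscle marker list moved within the fibroblast cluster: it summed to 227 CPM in the control library (7 of 10 markers, Myh11, Tagln and Cnn1 at 0), 1442 in the WD library and 3556 in the library labelled HHcy (10 of 10 in both). Its part in the fibroblast values was not tested. The fibroblast list itself stood at 55773, 48429.7 and 45059.8 CPM with 12 of 12 markers in each. Fewer fibroblasts passing the sort and a different kind of fibroblast passing it cannot be told apart.

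Timp1, a secreted inhibitor induced by inflammatory signals, was highest in WD fibroblasts. It reached 407 CPM (328 to 498), 299 CPM (262 to 339) and 860.4 CPM (817 to 906), log2 ratios of -0.44 (95% interval -0.80 to -0.08) and 1.08 (95% interval 0.78 to 1.40). The WD value rests on few cells: 1 cell held 446 of its 1446 UMIs and 10 cells 68.05%, and after thinning the ratio was 0.33. The share of thinned fibroblasts with Timp1 was 50, 30.6 and 43.3% (51.6, 49.4 and 65.1% before thinning), which is not highest in the WD library. In the Cd209a dendritic cell cluster Timp1 was level at 42.9, 37.7 and 42.9 CPM. Among macrophages it was low: 2.87, 4.13 and 6.53 CPM over the class, with a WD log2 ratio of 1.19 (95% interval 0.73 to 1.67), and 12.3, 31.4 and 21.8 CPM in foamy-like cells, its highest subset, with 0.83 (95% interval 0.14 to 1.58) for the WD library (1.92 without 10 cells of each library, 0.13 when cells were named one by one). The value of 1.92 leaves out a larger part of 118 control cells, which held 21 Timp1 UMIs, than of 271 WD cells, and adds no support. The fibroblast marker list summed to 150, 148 and 180 CPM over the class, and its part in the Timp1 difference was not tested.

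Timp2, which both inhibits metalloproteinases and helps Mmp14 to activate Mmp2, was detected in every cell class. Fibroblasts had 1557, 2152 and 1618 CPM and were highest. Cavity-like macrophages, which carry Prg4, Alox15 and Saa3 like cells of the serous cavities, had 991 CPM (942 to 1042), 1279 CPM (1221 to 1338) and 1354 CPM (1304 to 1405). Their fibroblast marker list summed to 71.8, 75.9 and 102 CPM with Pdgfra, Col6a1 and Loxl1 at 0 in all 3 libraries. Resident-like macrophages followed at 619, 806 and 730.1 CPM, C1q-like cells at 452, 456 and 411 CPM, the H2-M2 sub-cluster at 274, 333 and 272 CPM and foamy-like cells at 168, 149 and 159 CPM, while classical and non-classical monocyte-like cells had 20.7, 21.9 and 26.6 CPM and 19.9, 21.00 and 28.8 CPM. The first 5 of these kept their order in each library. Timp2 was detected in 84.2, 90 and 93.9% of thinned cavity-like cells, in 65.9, 71.6 and 66.5% of resident-like cells and in 2.83, 3.07 and 5.91% of classical monocyte-like cells, with 1.83, 2.02 and 3.58% in B cells.

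Timp2 differed little between libraries. In cavity-like cells the log2 ratios were 0.37 (95% interval 0.27 to 0.47) and 0.45 (95% interval 0.36 to 0.54), in resident-like cells 0.38 (95% interval 0.28 to 0.48) and 0.24 (95% interval 0.15 to 0.33), and in the class 0.41 and 0.33, all below the fold. The class ratio of the library labelled HHcy was 0.11 without the cells that held at least 10 Apoe UMIs. Neutrophils had 129, 180.5 and 187 CPM, mast cells 301, 393 and 411 CPM from 35, 24 and 11 cells, and endothelial cells 444, 872 and 707 CPM. Conventional dendritic cells had 41.1, 23.5 and 59.4 CPM, a log2 ratio of -0.81 (95% interval -1.16 to -0.46) for the library labelled HHcy that turned to 0.40 with doublets kept.

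**Figure D5:**
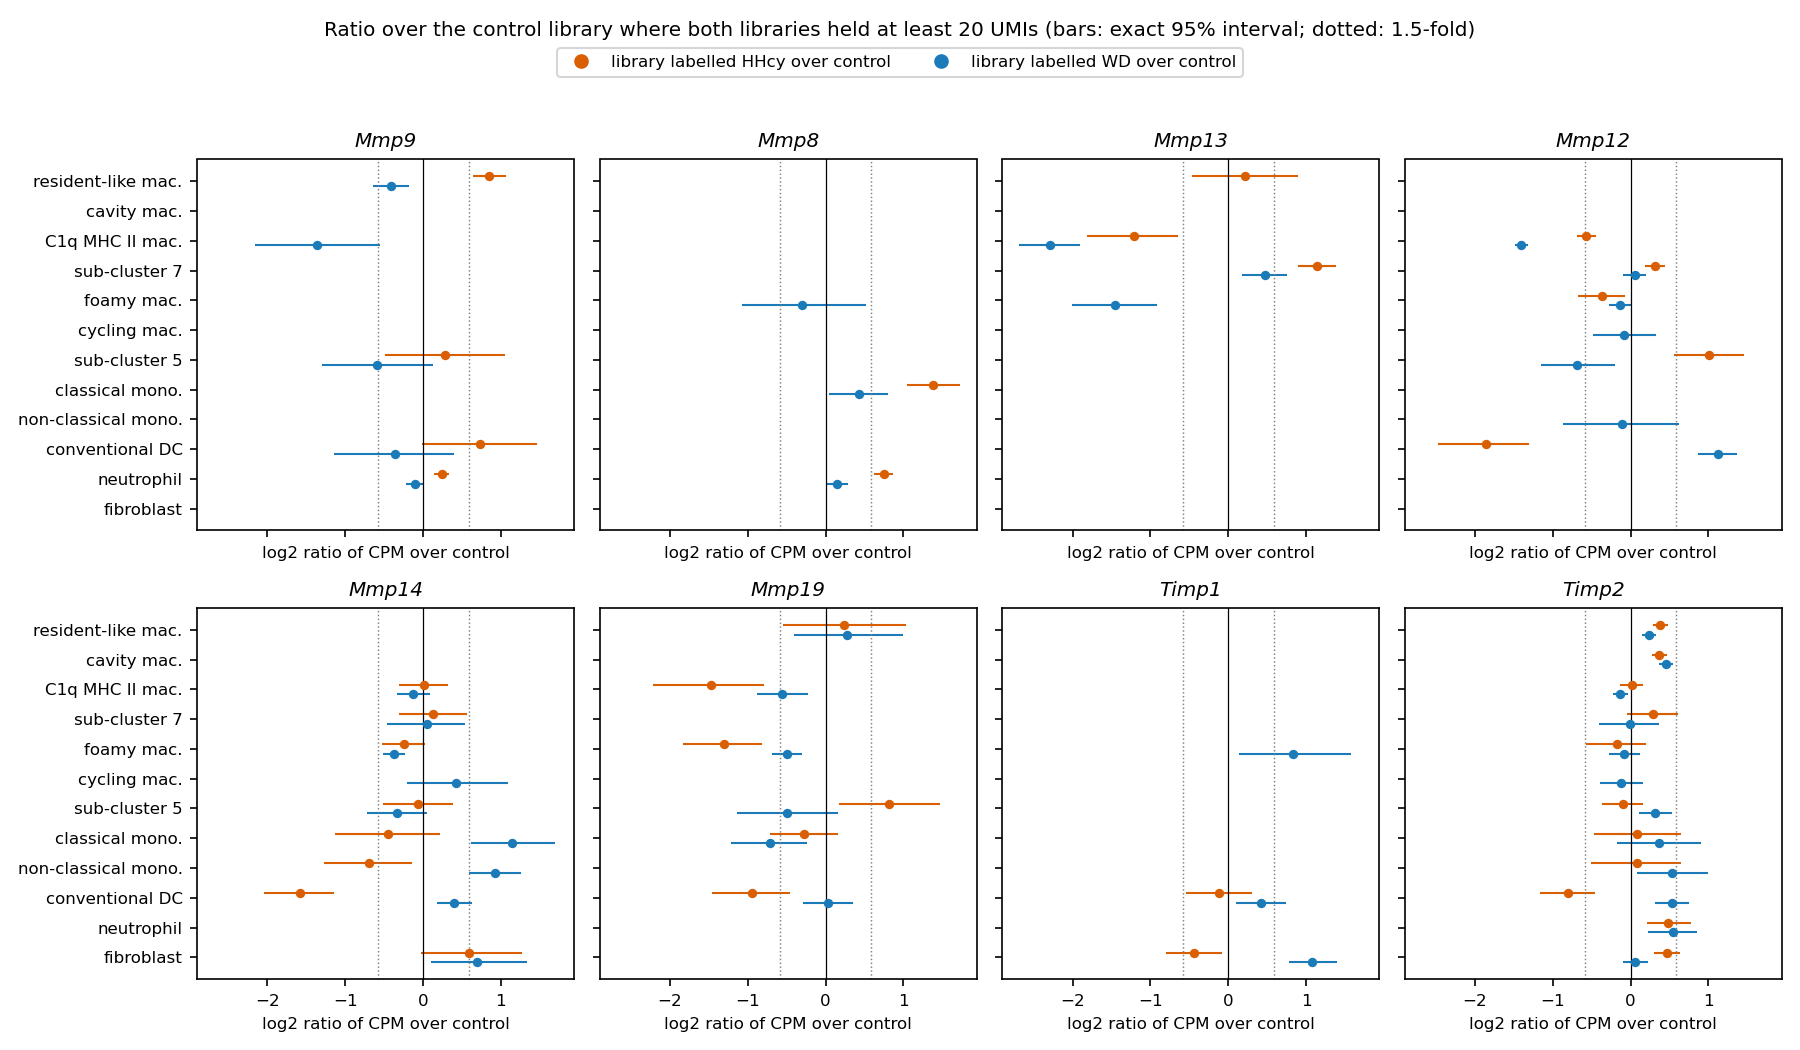
Points give log2 ratios of CPM over the control library for 8 members by cell group, for the library labelled HHcy and the WD library, with exact 95% intervals and dotted lines at 1.5-fold. Only groups with at least 20 UMIs in both libraries are drawn, and among these the C1q-like cells are the lowest WD point of the Mmp12 and of the Mmp13 panel (-1.41 and -2.29), and the Timp2 points of the macrophage and monocyte subsets lie between -0.18 and 0.53. Mmp2 is not plotted.

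Counted over the members, the libraries differed in both directions. In macrophages and monocytes 4 of 8 members were past the fold in the library labelled HHcy (Mmp8 and Mmp9 higher, Mmp14 and Mmp19 lower), where 10.5% of all genes were. In the WD library 3 of 9 were (Timp1 and Mmp2 higher, Mmp13 lower), where 11.5% of genes were. The Mmp2 call rests on 32 against 11 UMIs with an interval that holds 0 (-0.28 to 1.89), and its share of thinned cells was 0.198% in the WD library (5 of 2519) and 0.223% in the control library (4 of 1794). The median log2 ratio of the members tested was 0.44 and 0.00, against -0.05 and -0.01 over all genes. In C1q-like cells 3 of 6 were past the fold in the library labelled HHcy and 3 of 7 in the WD library, where 17.8% and 14.2% of genes were. All were lower (10.5% and 6.83% of genes were), namely Mmp9, Mmp13 and Mmp19 in the first and Mmp9, Mmp12 and Mmp13 in the second, and the medians were -0.89 and -0.56 against -0.05 and -0.04. The Mmp9 counts there were only 25, 5 and 32 UMIs, and its WD ratio turned to between 0.076 and 1.46 under 3 of 8 alternatives.

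In foamy-like cells 3 of 7 members were past the fold in the library labelled HHcy (Timp1 higher, Mmp13 and Mmp19 lower; 25.9% of genes) and 2 of 7 in the WD library (Timp1 higher, Mmp13 lower; 16.1%). Conventional dendritic cells had 5 of 6 past the fold in the library labelled HHcy (Mmp9 higher, Mmp12, Mmp14, Mmp19 and Timp2 lower; 14.1% of genes), and 2 of 7 in the WD library (Mmp12 and Mmp13 higher; 14.4%). The median there was -0.88 and 0.42, against 0.05 and 0.00 over all genes. Fibroblasts had 2 of 5 (Mmp14 higher, Mmp19 lower; 35.2%) and 3 of 5 (Mmp14 and Timp1 higher, Mmp19 lower; 34.3%), the first near the background. Both comparisons share the control library.

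Other genes of the family and its pathway were taken from fixed lists. Of 15 further metalloproteinases in the matrices 10 had at least 20 UMIs, and of 7 further inhibitors 4 did. Mmp3, stromelysin 1, was the most counted, with 6229 of its 6442 UMIs in fibroblasts, at 1089, 1548 and 2809 CPM (log2 ratios of 0.51 and 1.37). Timp3, an inhibitor bound to the matrix, was level in fibroblasts at 1609, 1509 and 1489 CPM. Reck, a membrane-anchored inhibitor, was 101, 61.5 and 60.1 CPM in fibroblasts. Mmp25, a membrane enzyme of leukocytes, was level in neutrophils at 112, 110 and 106 CPM.

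Within fibroblasts 6 of 7 plasminogen activation genes were higher in the library labelled HHcy and 4 of 7 in the WD library, where 21.3% and 18.7% of all genes were higher, with medians of 1.07 and 0.61 on the log2 scale against 0.08 and 0.02 over all genes. Lcn2, which binds Mmp9 and shields it from breakdown, was 26.2, 91.0 and 404 CPM there, from 6 control UMIs. Fn1, a matrix substrate, was 468 CPM in control fibroblasts and 2792 in the library labelled HHcy. Adamts1, a protease that cuts versican, was 114, 321 and 224 CPM. In macrophages and monocytes 0 of 13 transcription factor genes, AP-1, NF-kappaB and ETS members among them, passed the fold in either comparison, while in neutrophils 4 of 13 were lower in the library labelled HHcy, Fosb, Jun and Fos among them (-0.99, -0.92 and -0.88), and 1 in the WD library, Ets1. The share of all neutrophil genes that were lower was 30.4% and 19.0%, so neither count stands apart from it, and the list medians were -0.08 and 0.08 against -0.27 and -0.11 over all genes. Fos and Jun are also genes of dissociation stress. Of 16 such genes 1 was lower in macrophages and monocytes in each comparison (5.65% and 5.17% of all genes were). In neutrophils 6 of 16 were lower in the library labelled HHcy, near the 30.4% of all genes, and 0 in the WD library.

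In macrophages and monocytes the urokinase gene Plau was 60.4 CPM in the control library and 31.8 in the library labelled HHcy (-0.92). Lcn2 was 2.52, 31.7 and 5.34 CPM, beside the neutrophil marker levels given above. Of 9 vessel wall matrix genes 1 was higher in the library labelled HHcy, Vcan (18.8 against 73.6 CPM), and 5 of 13 were higher in the WD library, among them Dcn and Col3a1 (1.13 and 0.83 on the log2 scale), which are markers of fibroblasts. Of all genes 4.88% and 6.34% were higher, and the list medians were 0.06 and -0.03. Of 9 measured ADAM protease genes 1 was lower in the library labelled HHcy, Adam8 (54.9 against 34.3 CPM), and 0 differed by the fold in the WD library. A single gene of 9 is close to the 5.65% of all genes that were lower in the former.

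The genes whose levels followed each member most closely were found by Pearson correlation of log2(CPM + 1) over 49 combinations of cell group and library, among 12244 genes. The points share libraries, and these coefficients describe likeness only. Mmp12 was followed most closely by Dcstamp (0.918), Creg2 and Dppa3, and Mmp13 by Ms4a14 (0.797), Prkar1b and Cd207. Mmp8 was followed by Cd177 (0.899), Fcnb and Wfdc21, Mmp9 by Cstdc4 (0.772), Ddx60 and Camp, and Mmp2 by Antxr1 (0.957), Scara3 and Ltbp2. For Mmp14 the closest were Itgb5 (0.801), Epb41l2 and Tpi1, for Mmp19 Pdpn (0.742), Sestd1 and Ifi205, for Timp1 Rab34 (0.796), Vasn and Tspan11, and for Timp2 Ctsf (0.863), Tspan4 and Serpinb6a. Among the members themselves Mmp12 and Mmp13 correlated at 0.767, Mmp2 and Timp1 at 0.725, Mmp12 and Mmp14 at 0.679, and Mmp8 and Mmp9 at 0.565.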

How the data were processed

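Single-cell RNA of CD45+ cells from mouse aortas was deposited as 3 count matrices, 1 library per group. The authors' values are raw UMI counts per gene and barcode, not normalised, per the file headers. The submitters' processing notes name Cell Ranger 2.2.0 and build mm10, while the matrix headers name cellranger-4.0.0. How strand was handled in counting is not given in the sources used here.

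Cells with at least 200 genes and at most 10% mitochondrial UMIs were kept. Barcodes that carried markers of more than 1 lineage were left out as doublets: 608 control, 1669 HHcy-labelled and 1341 WD cells. Counts were log-normalised and clustered (scikit-learn 1.9.0, leidenalg 0.10.2, 2000 variable genes, 30 components, 20 neighbours, resolution 1, sub-clusters at 0.5) on Python 3.11.15, with all metalloproteinase, inhibitor, ADAM and ADAMTS genes left out of the variable and marker genes. Clusters were named from marker lists, and 596, 559 and 520 cells stayed unnamed. Limits for doublets, names and the minimum of 20 UMIs per library were set after the data had been examined, and the members and gene lists were chosen with earlier results of these data known.

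UMIs were summed per library and group. CPM had exact Poisson intervals, shares Clopper-Pearson intervals and ratios conditional binomial intervals (scipy 1.17.1), at 95%. A ratio at 0 UMIs used a floor of 3 counts over the group. The ratio code was tested on simulated data. Each cell was thinned to 2000 UMIs for shares, leaving out shallower cells. Named genes followed a rule: all 9 members, the 3 genes most correlated with each, and in each list the 3 largest folds or the highest level. Not every gene the rule takes is printed.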

Additional observations from a re-analysis of the deposited data

Results flagged for a closer look

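The Mmp12 ratio of the WD library over the control library had opposite signs in different cell groups. In conventional dendritic cells the log2 ratio of the WD library over the control library was 1.12, and in C1q-like macrophages it was -1.41. Each group has 1 library per condition, so the difference between the cell types was not tested. Neither ratio can be put down to the diet.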

How the results depend on the processing

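Of 811 recomputations of 86 log2 ratios, 615 stayed within the counting interval of the reported value, 170 moved and 26 turned sign from a value whose interval left out 0. No paired analysis was possible because each group is 1 library and all carry the same replicate number, and for the same reason no replicate could be left out. The scaling, the cell filters, the clustering and the thinning were changed 1 at a time, and a reweighting of neutrophil sub-clusters and the neutrophils without their monocyte-gene sub-cluster were added after seeing the data. The cause of the changes was not tested. With doublets kept, values for the library labelled HHcy became -0.029 for Mmp13 in macrophages and monocytes (from 0.46), -0.091 for Mmp9 in neutrophils, 0.40 for Timp2 in dendritic cells, 0.99 for Mmp13 in C1q-like and 0.58 for Mmp12 in foamy-like cells, and the WD value of Mmp8 in neutrophils became -0.47. Thinning gave 0.22 for Mmp12 in macrophages and monocytes and -0.00335 for Mmp9 in neutrophils of the library labelled HHcy. For the WD library it gave -0.052 for Mmp8 in neutrophils, 0.15 for Mmp19 and 0.20 for Timp2 in C1q-like cells and 0.052 for Mmp19 in foamy-like cells. Allowing 20% mitochondrial UMIs gave 1.32 for Mmp13 of the library labelled HHcy and 0.076 for Mmp9 of the WD library in C1q-like cells. Resolution 2 gave there 1.24 for Mmp13 and 0.18 for Mmp12 of the library labelled HHcy and 1.46 for Mmp9 of the WD library. Naming each cell by its own markers gave 1.20 for Mmp13 and 0.032 for Mmp12. Clustering each library alone gave, in foamy-like cells, 2.67 for Mmp12 of the library labelled HHcy, and 0.37 for Mmp14 and 0.11 for Mmp19 of the WD library. Leaving out the 10 richest cells gave 0.22 for Mmp9 and 0.034 for Timp2 in C1q-like cells and 0.40 for Mmp19 in foamy-like cells of the WD library. The control sub-cluster mix gave -0.020 for Timp2 in neutrophils of the library labelled HHcy.

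The counts of members past the fold are small and moved. In macrophages and monocytes the 2 lower members of the library labelled HHcy became 1 (naming cell by cell, control mix) or 0 (thinning, a 2-fold limit). The 2 higher members of the WD library became 1 (20% mitochondrial UMIs, naming cell by cell, thinning, 2-fold) and its 1 lower member 2 (the same except 2-fold, and without the 10 richest cells). In neutrophils of the library labelled HHcy the 1 higher member became 3 (doublets kept), 2 (median-ratio scaling, without 10 cells) or 0 (thinning, control mix, 2-fold), and the 1 lower became 4 (no count minimum) or 0 (thinning, without 10 cells, without the monocyte-gene sub-cluster). In the WD library the 0 higher became 5 (doublets kept) or 1 (thinning, scaling, without 10 cells, no minimum), and the 1 lower became 2 (no minimum) or 0 (thinning, without 10 cells, without that sub-cluster). The 11 pathway genes past the fold in neutrophils of the library labelled HHcy became 18 with doublets kept, and the 8 of the WD library became 13 at 20% mitochondrial UMIs and 18 with doublets kept.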

Other observations

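The unnamed cells of the control library, 596 cells, held 314 Mmp12 UMIs, of which 1 cell held 222. The same cells held 183 Mmp19 UMIs, 65 of them in 1 cell. In the library labelled HHcy and the WD library the unnamed cells held 20 and 103 Mmp12 UMIs.

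In control T cells or NK cells 33 Mmp9 UMIs were counted in 12 of 179 cells, a level of 30.8 CPM against 1.92 CPM in B cells of the same library.

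Part of each member's counts lay in barcodes that were left out of the comparisons. The cells used held 71.9, 47.3 and 52.2% of the Mmp9 UMIs of all barcodes, 80.5, 51.2 and 53.4% of the Mmp8 UMIs and 73.7, 46.4 and 63.2% of the Timp2 UMIs. Doublets made up 10.1, 20.5 and 19.99% of the cells that passed the quality filters.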
